A study of Mus musculus with 10 samples.

Results

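The cells described here were 618 of 22325 kept barcodes (2.77%) in 10 single-cell libraries of mouse pituitary, chosen by their UMI counts of genes that mark Sox2-positive stem and supporting cells. A barcode entered the gate when it held UMIs of at least 2 of 8 genes, namely Sox2, Aldh1a2, Mia, Folr1, Cpxm2, Rbpms, Alox12e and Ednrb. A UMI, or unique molecular identifier, counts 1 captured transcript. A barcode was refused if it held any UMI of the pituicyte genes Rax, Scn7a and Col25a1, the stromal genes Col1a1 and Dcn, the endothelial gene Pecam1, or the macrophage genes C1qa and C1qb. The gate therefore used measured counts, and every value of its 16 genes in the gated cells is a description of the rule.

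The study profiled dissociated mouse pituitaries by 10X Genomics and by Drop-seq. The paper names CD1 as the strain of its purchased mice and gives no strain for the transgenic mice described below. Wild-type (WT) mice of 8 weeks gave 3 female and 3 male libraries, of which the first of each sex was 10X Genomics and the other two were Drop-seq. Drop-seq alone was used for 1 library of 8-week females carrying mt/hGRF, a metallothionein promoter joined to human growth hormone releasing factor, and for WT females of 13 weeks, with 1 virgin and 2 lactating libraries. The stage of the oestrous cycle was not labelled, several libraries were pooled from more than 1 mouse, and the mt/hGRF and virgin groups each rested on 1 library. The transgene's promoter is active in many tissues, so the mice differ from WT outside the pituitary too.

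Pituitary stem cells express the transcription factor SOX2 and line the remnant of the embryonic cleft between the lobes. They can give rise to the hormone-producing lineages. They overlap in marker genes with folliculostellate cells, agranular cells that form a network among the endocrine cells, pass small molecules through gap junctions and act as scavengers. Notch, Wnt, Hippo and retinoic acid signalling are studied in these cells as pathways that balance quiescence against differentiation.

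The libraries held 798791 to 4960260 UMIs in kept barcodes. The median gated cell held 1121 UMIs, against 699 in all other kept barcodes and 888 in a macrophage gate of 841 barcodes that served as a cell type lacking the stem genes. At most 5 barcodes were shared between any 2 libraries of the same platform, and the sex labels were checked with Xist and the Y-linked genes in the gated cells. No doublet caller was run. The Drop-seq and 10X Genomics tables shared 24767 gene symbols, and levels below are UMIs per 10000 UMIs summed over the gated cells of a library, which do not separate how many cells held a transcript from how much each held.

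The gate took 2.16% to 5.20% of kept barcodes in WT females (35, 42 and 37 cells) and 2.30% to 4.33% in WT males (37, 36 and 75 cells). The mt/hGRF library gave 69 cells (2.49%), the virgin library 127 (3.5%), and the lactating libraries 44 (1.67%) and 116 (2.21%). The sexes overlapped, with mean shares of 3.46% and 3.5% and a ratio of 0.99 (exact permutation test over libraries, two-sided p = 1, n = 3 against 3, smallest possible p = 0.1). Stricter settings gave lower ratios, 0.67 with at least 3 gate genes, 0.691 with a Sox2 UMI required and 0.71 after every barcode was thinned to 300 UMIs. In each of these the female share was below the male share in all 3 same-numbered pairs, and the exact permutation p over libraries was 0.2, 0.4 and 0.3. In lactation the mean share was 0.553 times that of the virgin library, and the exact 95% binomial interval of the virgin library (2.93% to 4.15%) lay above those of the lactating libraries (1.21% to 2.23% and 1.83% to 2.64%). These intervals cover counting error only, and no test over libraries was made for 1 virgin against 2 lactating libraries. After thinning the shares were 2.01% in the virgin library and 0.606% and 0.723% in lactation.

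**Figure D1:**
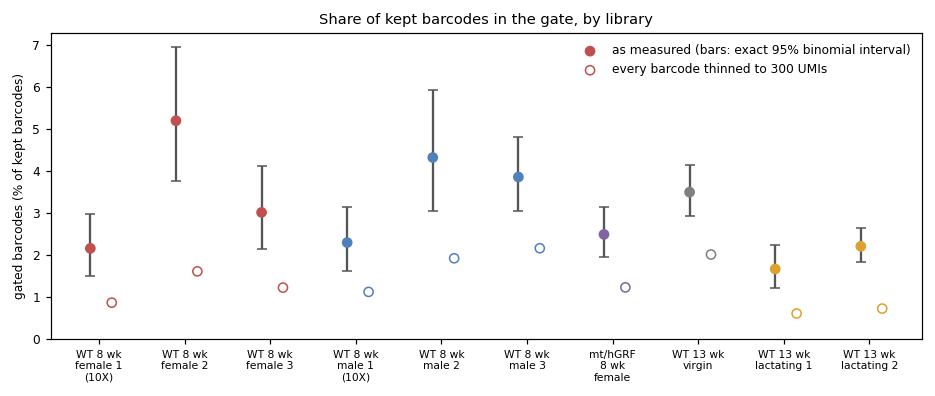
Share of kept barcodes inside the gate (y axis, percent) in each of the 10 libraries (x axis), with exact 95% binomial intervals on the filled points and open points after thinning every barcode to 300 UMIs. Female and male WT libraries overlap, and the virgin library sits above the 2 lactating libraries on either measure.

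Mia, which encodes a small secreted protein first found in melanoma, and Rbpms, an RNA-binding protein, carried most of the gate. Mia was seen in 71.4% of gated cells and in 3.36% of the other kept barcodes, and Rbpms in 61.3% and 1.45%. Folr1, a folate receptor, was seen in 42.6%, the endothelin receptor gene Ednrb in 32.0%, Cpxm2, a carboxypeptidase relative, in 29.9%, and Aldh1a2, the enzyme that makes retinoic acid, in 24.9%. The commonest pair was Mia with Rbpms, in 256 cells. In the macrophage gate Mia was seen in 1.78% of barcodes and Sox2 in 0.119%. That gate admitted only barcodes with under 2 gate genes, so these shares are low partly by its rule.

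Sox2 itself was seen in 195 gated cells (31.6%), against 0.894% of other kept barcodes. Its level was 0.999, 2.06 and 1.88 UMIs per 10000 in WT females 1 to 3, 0.992, 3.79 and 3.99 in WT males 1 to 3, 2.61 in mt/hGRF, 5.39 in the virgin library, and 2.54 and 2.48 in lactation. The levels of the sexes overlapped, and both 10X Genomics libraries were lowest. Cells with a Sox2 UMI were sequenced more deeply, with a median of 1400 UMIs against 974 in gated cells without one, so 423 members lacking a Sox2 UMI are not shown to lack the transcript.

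Alox12e, an arachidonate lipoxygenase, is a gate gene too, and its values describe which cells the rule took. It was seen in 41.7% of gated cells in the virgin library and in 47.7% and 39.7% in lactation, but in 0% to 18.9% in the 7 libraries of 8 weeks. Its level was 5.86 UMIs per 10000 in the virgin library and 3.87 and 3.15 in lactation, and at most 1.26 in any 8-week library. Aldh1a2 was lowest in the first lactating library, at 0.121 UMIs per 10000 (1 of 44 cells), and 1.16 to 6.45 elsewhere.

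The marker check went only partly with the label. SOX9, the partner of SOX2 in the adult stem cell pool, was represented by Sox9 UMIs in 13.4% of gated cells and 0.318% of the rest. Several other markers outside the gate went the same way. Krt18 was seen in 20.2% against 4.13%, Krt8 in 8.41% against 1.26% and Slc1a3 in 9.22% against 1.10%. Capn6 was seen in 6.63% against 0.203% and Cdh1 in 3.72% against 0.217%. Gated cells were also sequenced more deeply than the rest. S100b, the classical folliculostellate gene, was seen in 3 gated cells (0.485%) and 0.267% of the rest. Gfap was seen in 0 of 618 gated cells and 0.0461% of the rest. That 0 allows a share of cells with a UMI of up to 0.485% and sets no limit on cells expressing the gene. Because 423 members held no Sox2 UMI and the hormone transcripts described next were not low, the members are called gated cells below and given no other name.

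Hormone RNA covered a similar range of shares in the gated cells and elsewhere. Gh, Prl, Pomc, Cga, Lhb, Fshb and Tshb together took 9.01% to 29.5% of gated UMIs by library (median 19.9%) and 13.8% to 27.0% of UMIs in other kept barcodes (median 20.9%). The macrophage gate, which should make no hormone, held 0.32% to 8.13% (median 3.29%). As a median over libraries of this share of summed UMIs, cells holding 2 gate genes, just inside the limit, had 30.4%. Cells holding 1 gate gene, just outside, had 27.5%, and cells with 3 or more had 14%. By single cells, the library medians ran from 4.72% to 40.1% with 2 gate genes and from 1.88% to 11.4% with 3 or more. The members were uneven, since 317 cells held under 10% hormone UMIs and 89 held at least 40%, of which 74 had 2 gate genes.

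**Figure D2:**
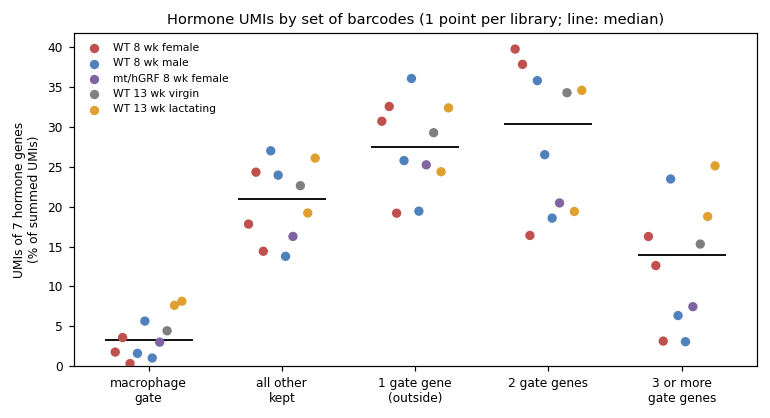
Percent of summed UMIs that came from 7 hormone genes (y axis) in 5 sets of barcodes (x axis), with 1 point per library and a line at the median of 10. Cells with 3 or more gate genes have a median of 14%, below the 30.4% of cells with 2 gate genes, and the macrophage gate has 3.29%.

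Macrophage, endothelial, lymphoid and pituicyte markers were near 0 in gated cells, and endocrine markers were not. The 14 endocrine genes outside the hormones summed to 33.8 to 160.5 UMIs per 10000 (median 59.8), against 49.8 to 155 (median 71.5) in other kept cells. Barcodes with too few UMIs to be kept (at most 100 in 10X Genomics, under 300 in Drop-seq) held 0 to 220 of them (median 89.3). The 0 was in lactating library 2, where 5908 of 6000 barcodes passed the limits on UMIs and genes. So few barcodes were left there that the 0 says little about background. The 7 hormone genes had a median of 2725 UMIs per 10000 in barcodes with too few UMIs and 1991 in gated cells. How much of the gated UMIs was such background was not tested. Where a list holds genes that the gate refused, those are 0 by the rule and say nothing about the cells, namely C1qa, C1qb, Pecam1, Col1a1, Dcn, Rax, Scn7a and Col25a1. The 10 macrophage genes summed to 0 to 0.870 UMIs per 10000 in gated cells against 280 to 444 in the macrophage gate, which C1q genes defined, and 26 members (4.21%) held a UMI of any macrophage or lymphoid marker. The 9 endothelial genes summed to 0 to 0.594, with 0.231 to 0.661 in other kept cells, the 6 lymphoid genes to 0 to 0.0828, and the 5 pituicyte genes to 0 to 0.0414. Of the pituicyte genes that the rule did not use, Nkx2-1 was at 0 in every library, and in other kept cells it was at most 0.0497. The 9 stromal genes summed to 1.32 to 6.09, nearly all from Col1a2, whose median was 2.72 in gated cells and 3.79 in the rest. Haemoglobin transcripts were uneven, at 3.61 to 90.2 UMIs per 10000, and 4 cells had at least 5% of their UMIs from them.

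Genes outside the rule were ranked by their ratio between gated and other cells. Igfbp5, a binding protein for insulin-like growth factors, came first and had a median level of 25 UMIs per 10000 against 1.42 in other kept barcodes, a log2 ratio of 3.66 (range over libraries 2.46 to 4.59). It was seen in 69.9% of gated cells, 6.97% of the rest and 2.02% of the macrophage gate. Gstm1, a glutathione transferase, followed with a log2 ratio of 3.32, Ifitm3, an interferon-induced membrane protein that blocks virus entry, with 3.04, Atp1b1, a sodium pump subunit, with 2.71, and Aldoc, an aldolase common in glia, with 2.61.

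The other 20 of the 25 leading genes had log2 ratios from 1.91 to 2.30. They include Glul, which makes glutamine, the transcription factors Nfia and Nfib, the plasminogen activator Plat, Hsd11b1, which regenerates active glucocorticoid, Cyp2f2, a cytochrome, Clu, a secreted chaperone, and Mdk, the growth factor midkine. Of the 25, 24 were higher than in other cells in all 10 libraries, and Rhoc, a small GTPase, in 9. In Drop-seq alone 21 of them remained among the leading 25, as did 21 when barcodes above the 95th percentile of UMIs were left out. As the gate chose these cells by genes that vary with them, no test was made.

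**Figure D3:**
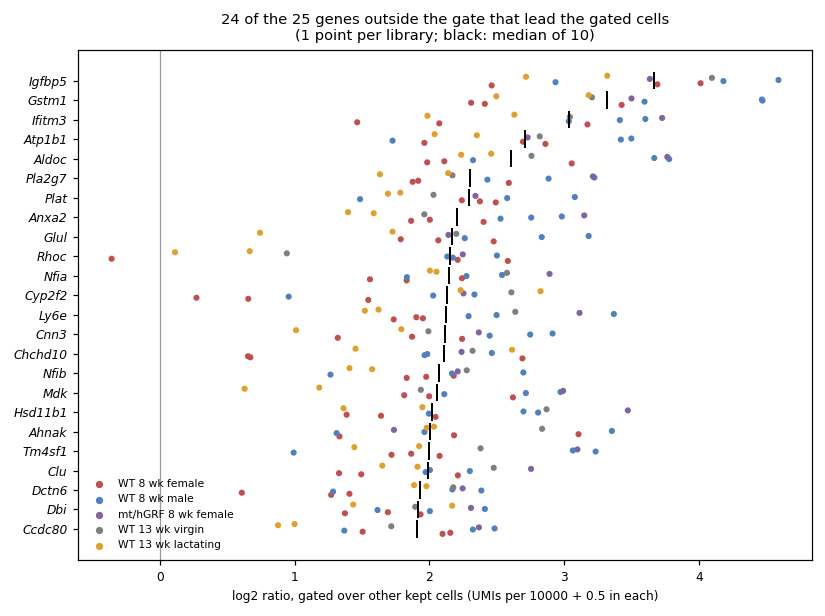
Log2 ratio of the level in gated cells to that in the other kept cells (x axis, with 0.5 UMIs per 10000 added to each) for 24 of the 25 leading genes (y axis), with 1 point per library coloured by group and a black mark at the median. Igfbp5 has the highest median, 3.66, and Ccdc80 the lowest, 1.91.

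Pathway and cell type lists are given as counts of genes that were higher in gated cells in at least 8 libraries, with the 8 gate genes left out of every list. Of all 3775 genes with enough UMIs, 1531 (40.6%) were, with a median log2 ratio of 0.14. Enough meant at least 50 UMIs in gated cells in all and a UMI in gated cells of at least 8 libraries. Genes scarce in gated cells could therefore not be counted. This left 15 of 23 listed epithelial junction genes, 6 of 21 Notch, 9 of 41 Wnt, 5 of 24 Hippo and 2 of 18 retinoid genes. All 15 measured genes of epithelial junctions were higher by that count (median 0.93), among them Epcam, an adhesion molecule, with 6.85 UMIs per 10000 against 3.41, Spint2, a protease inhibitor, with 5.0 against 1.76, and the claudin Cldn3 with 1.04 against 0.201. Of the folliculostellate list, 15 of 17 were higher (median 1.16). The remaining genes, Apoe at 4.77 against 23.6 and Cst3 at 11 against 20.2, were lower in all 10 libraries. Both are macrophage genes too, seen in 93.5% and 99.4% of the macrophage gate.

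Genes of the stem transcription factor list, not all of them transcription factors, were higher in 12 of 16 cases (median 0.76). Zfp36l1, a gene of this list that destabilises mRNA and is not itself a transcription factor, had 1.81 UMIs per 10000 against 0.287.

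In the Notch pathway, the receptor Notch2 and the target genes Hes1, Hey1 and Hey2 were higher, 4 of 6 measured genes. Hes1, a repressor of differentiation, had 1.16 UMIs per 10000 against 0.123, Hey1 had 0.749 against 0.0462 and Notch2 0.477 against 0.0974. In the Wnt list 8 of 9 were higher, including the receptor Fzd3, the R-spondin receptor Lgr4 (0.498 against 0.125), the nuclear effector Tcf7l2 (0.673 against 0.180) and the secreted antagonists Sfrp5 and Dkk3.

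All 5 measured Hippo genes were higher, namely the coactivator Yap1 (0.377 against 0.0497), its DNA-binding partner Tead1, and the regulators Amot, Amotl1 and Vgll4. Outside the gate only 2 retinoid genes had enough UMIs, and both were higher, among them Aldh1a1, which makes retinoic acid. Among growth factor genes 7 of 10 were higher and 2 lower. The higher genes include Fgfr1, a fibroblast growth factor receptor, at 1.11 against 0.171, Gas6, a ligand of the TAM receptors, at 1.54 against 0.274, and Tgfb2 at 0.583 against 0.0345.

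Of the secreted and matrix list, 10 of 13 were higher, such as the metalloproteinase inhibitor Timp3, at 1.77 UMIs per 10000 against 0.247. Metallothioneins, which bind zinc and copper, were the only 3 of 9 immediate early and stress genes that were higher. Mt1 had 9.02 against 2.63, Mt2 8.32 against 2.03 and Mt3 2.20 against 0.576, while Btg2, Junb and Fos were higher in 1 library each. The antigen presentation list, which also holds interferon-induced genes such as Ifitm3, was split, with 5 of 9 higher and the other 4 lower in at least 8 libraries (median 0.19). Cell cycle genes were higher in 2 of 5 cases, endocrine genes in 1 of 10, with 4 lower, and hormones in 1 of 6, with 1 lower.

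Few gated cells showed transcripts of division. Mki67 was seen in 11 (1.78%) and Top2a in 17 (2.75%), against 1.5% and 1.56% of other kept barcodes and 1.55% and 1.66% of the macrophage gate. Cyclin D1, encoded by Ccnd1 and needed early in the cycle, was seen in 23.1% against 6.12% of the rest and 13.0% of the macrophage gate.

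The comparison of sexes asked which genes differed between gated cells of 8-week WT females and males. By edgeR's quasi-likelihood test over all 10 libraries with a term for platform, 14 of 4393 genes tested (0.319%) passed a Benjamini-Hochberg adjusted p of 0.05, with 8 higher in females (0.182%) and 6 in males (0.137%). The median log2 fold change over all genes was 0.01. Same-numbered libraries shared a platform or a code in their titles, and with the pair as a block 2 of 1329 genes passed (0.15%), Xist and Lcn2. DESeq2 called 3 (0.0683%), and 7 of 2837 genes passed among cells with at least 3 gate genes (0.247%). Xist, the RNA of the inactive X chromosome, and Eif2s3y, a Y-linked gene, followed the labels in all 6 libraries.

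Lcn2 was higher in males. It encodes lipocalin 2, a secreted protein that binds bacterial siderophores. Its level in gated cells was 0.416, 0 and 0.157 UMIs per 10000 in WT females 1 to 3 and 2.65, 8.72 and 6.03 in WT males 1 to 3. The sexes did not overlap, and the lowest male library exceeded the highest female library.

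The female minus male log2 fold change of Lcn2 was -4.13 (SE 0.55, adjusted p = 1.62e-10 by edgeR's quasi-likelihood test, Benjamini-Hochberg). With the replicate block it was -4.08, and it stayed past the threshold in 16 of 17 alternatives, with adjusted p between 1.25e-11 and 0.10. The size was less steady, from -3.67 without female 2 to -6.02 without female 1. It was -8.25 with a Sox2 UMI required, where the call was lost and female 2 was the only 8-week WT female library left. Lcn2 was seen in 5 of 35, 0 of 42 and 1 of 37 female cells and in 10 of 37, 16 of 36 and 22 of 75 male cells. No single cell carried it, as the richest held 5.71% of its 210 UMIs.

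Lcn2 was scarce outside the gate, seen in 0.521% of other kept barcodes and 0.119% of the macrophage gate. The sex difference in those other cells was -1.13, and the difference between the differences, -3.11 (SE 0.88), missed the threshold (adjusted p = 0.16, edgeR's quasi-likelihood test). In the other female libraries Lcn2 had 3.31 UMIs per 10000 in mt/hGRF, 0.523 in the virgin library, and 0.363 and 0.373 in lactation. The 13-week females thus lay under every male library and the mt/hGRF library lay within the male range.

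Gstm1, which leads the gated cells, was also higher in males, at 12.5, 25.8 and 19.9 UMIs per 10000 against 8.33, 4.87 and 3.45 in females. The sexes did not overlap. Its log2 fold change was -1.62 (SE 0.40, adjusted p = 0.0186 by edgeR's quasi-likelihood test), and the call was lost with the block (-1.64, adjusted p = 0.27) and without female 2, female 3, male 2 or male 3, as adjusted p ranged from 0.00149 to 0.65 over the alternatives.

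Maob, a mitochondrial monoamine oxidase, had 0.661, 4.17 and 2.89 UMIs per 10000 in males and 0.0833, 0.375 and 0.314 in females, again without overlap. Its log2 fold change was -3.03 (adjusted p = 0.00261, edgeR's quasi-likelihood test). It fell below the expression filter under the block, and without female 3 or male 3 it lost its call.

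Id3, an inhibitor of helix-loop-helix factors that responds to BMP signalling, was higher in females by 2.98 log2 units (SE 0.48, adjusted p = 5.68e-07, edgeR's quasi-likelihood test). Female levels were 14.1, 3.18 and 2.98 UMIs per 10000 and male levels 0, 2.47 and 0.679, so the sexes did not overlap, but female 3 and male 2 were close. In female 1 all 169 UMIs came from 8 of 35 cells, 63 of them from 1 cell. By edgeR's quasi-likelihood test the call was lost with the block (adjusted p = 0.42). It was also lost without female 1 or male 1 (log2 fold changes of 1.37 and 1.41). The sign turned when a Sox2 UMI was required (-5.78). That fit left out female 1, female 3 and male 1, which had 6, 9 and 8 such cells.

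**Figure D4:**
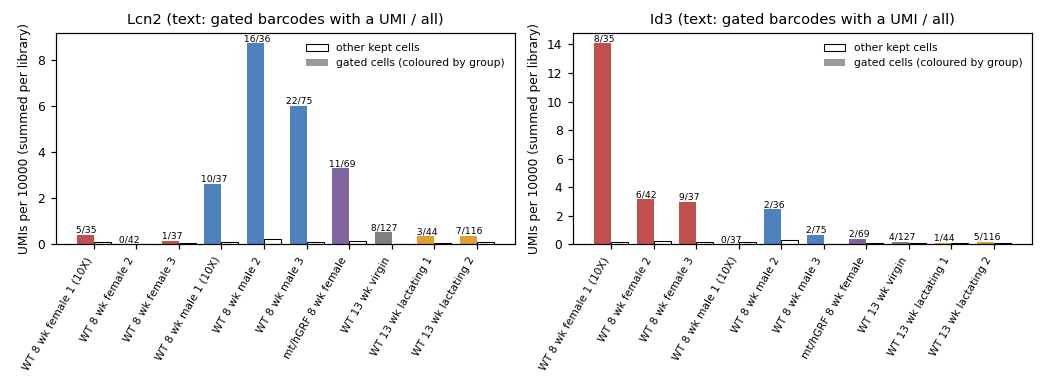
Level of Lcn2 (left) and Id3 (right) in UMIs per 10000 (y axes) in the 10 libraries (x axes), filled bars for gated cells and open bars for all other kept cells, with the number of gated cells holding a UMI above each bar. The 3 male libraries have 2.65 to 8.72 for Lcn2 against 0 to 0.416 in 8-week WT females, and Id3 reaches 14.1 in female 1.

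Some other genes called higher in females rested on few cells or 1 library. In female 3, single cells gave 47 of 49 UMIs of Oacyl and 39 of 45 of Ttn, which encodes titin, and without that library 8 genes passed in all. Pcsk2, a prohormone convertase of endocrine cells, had 5.58, 1.5 and 7.85 UMIs per 10000 in females and 2.31, 0.759 and 0.255 in males, and these overlapped. Rasd1 and Sparcl1 were also called higher in females. Rasd1 had 18, 3 and 23 UMIs in gated cells of females 1 to 3 and 2, 1 and 1 in those of males 1 to 3. The calls of Pcsk2, Rasd1 and Sparcl1 were lost without female 3 and among cells with at least 3 gate genes, and Ttn turned to -2.55 without female 3. Sparcl1 held its call in 6 of 17 alternatives. It turned to -5.93 when a Sox2 UMI was required, with female 2 the only 8-week WT female library left. Fshb, the gonadotrope hormone subunit, was called higher in males here (-5.11) and was called in the other cells too (-4.54). Its call in gated cells held in 7 of 13 alternatives and was lost without female 1, male 1 or male 3, with at least 3 gate genes and in DESeq2 (adjusted p = 0.21). Cwc22, a splicing factor with near-identical copies in the mouse genome whose reads may be misassigned, was -3.28 in gated cells and -3.54 in the others, and lost its call in gated cells without male 3.

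For 9 genes (0.205% of those tested) the sex difference in gated cells differed from that in all other kept cells, 7 more towards females (0.159%) and 2 more towards males (0.0455%). The first group holds Id3, Pcsk2, Oacyl, Ttn and Rasd1 and the immediate early genes Fos and Btg2, and without female 3 only 1 of the 9 passed. Of the lists, again without gate genes, the stem transcription factors had 1 of 16 called higher (Id3) and a median of -0.56, the folliculostellate list 0 higher and 1 of 17 lower (Lcn2), and no measured gene of the Notch, Wnt, Hippo, retinoid or growth factor lists was called. In the antigen presentation list 0 of 12 passed, with a median of -0.92, and 0 of 14 passed in the immediate early and stress list, with a median of 0.58. The cell cycle and epithelial junction lists had 0 of 10 and 0 of 16 called. Of the 16 junction estimates, 14 were negative (median -0.37). Of the endocrine list 1 of 11 passed, higher in females. Its estimates were positive in 8, with a median of 0.57 against -0.21 in other kept cells. Cells with at least 3 gate genes were 16 of 35, 15 of 42 and 14 of 37 in WT females 1 to 3. In WT males 1 to 3 they were 19 of 37, 23 of 36 and 39 of 75. The part of this make-up in the sex differences was not tested.

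The comparison of lactation with virgin females at 13 weeks found 12 of 4393 genes (0.273%) past the threshold, 2 higher in lactation (0.0455%) and 10 lower (0.228%). Of the antigen presentation list, 6 of 12 measured genes were lower and 0 higher, with a median log2 fold change of -1.84 against 0.01 over all genes and -1.09 for the same list in other kept cells. DESeq2 called 0 genes, with 45 at an unadjusted p under 0.05, where edgeR's quasi-likelihood test had 182. Among cells with at least 3 gate genes 8 of 2837 passed (0.282%). The virgin group is 1 library, and its mouse cannot be told apart from its condition. Its spread was assumed to be like that of the other groups.

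B2m, the constant chain of MHC class I, had 22.5 UMIs per 10000 in gated cells of the virgin library and 2.90 and 3.81 in lactation, a log2 fold change of -2.53 (SE 0.53, adjusted p = 0.00135, edgeR's quasi-likelihood test). The class I heavy chain genes went with it, H2-D1 from 32.6 to 4.71 and 5.22, and H2-K1 from 23.6 to 4.47 and 4.27. In each of these genes the lactating libraries lay together and far below the virgin library. They fell by 2.52 and 2.25 on the log2 scale, and none of B2m, H2-D1 and H2-K1 passed when either lactating library was left out (adjusted p from 0.056 to 0.50).

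The class II genes differed by more between the virgin and lactating libraries. Cd74, the invariant chain that guides class II molecules, had 4.29 UMIs per 10000 in the virgin library and 0.121 and 0.0414 in lactation, a log2 fold change of -5.67 (SE 0.81, adjusted p = 8.73e-09, edgeR's quasi-likelihood test), and it passed without either lactating library. H2-Aa had 2.41 against 0 and 0.166, and H2-Ab1 1.88 against 0.242 and 0.124, with log2 fold changes of -4.01 and -3.29. The call of H2-Aa was lost without lactating library 1 (adjusted p = 0.073, edgeR's quasi-likelihood test). That of H2-Ab1 was lost without either lactating library and with at least 3 gate genes (adjusted p = 0.287), and it held in 5 of 12 alternatives. H2-Aa was seen in 32 of 127 gated cells of the virgin library and in 0 of 44 and 4 of 116 in lactation. It was seen in 58.4% of the macrophage gate.

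The other kept cells of the virgin library were also rich in these genes, with 17.1 UMIs per 10000 of H2-Aa against 3.20 and 1.49 in lactation, and 12.0 of B2m against 6.27 and 3.44. No antigen presentation gene had a lactation difference in gated cells that differed from that in other cells past the threshold, and for B2m the difference of differences was -1.41 (SE 0.48, adjusted p = 0.80, edgeR's quasi-likelihood test). The 10 macrophage genes summed to 0.105 UMIs per 10000 in gated virgin cells and 0.363 and 0.870 in lactation. With members that held no macrophage or lymphoid UMI, the same 12 genes passed.

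Mt3 and Snhg11 rose in lactation. Mt3, a metallothionein of brain and glia, had 0.732 UMIs per 10000 in the virgin library and 8.22 and 2.32 in lactation (log2 fold change 2.89, SE 0.64, adjusted p = 0.00349, edgeR's quasi-likelihood test), and the call was lost without lactating library 1. In 8-week libraries Mt3 ran from 0.401 in mt/hGRF to 7.08 in female 1, which takes in the virgin and second lactating libraries but not the first. Snhg11, a long noncoding RNA, had 2.41 against 12.3 and 10.8, and other kept cells held more of it, at 23.4 against 29.1 and 25.1. Its call was lost without lactating library 1 (adjusted p = 0.076, edgeR's quasi-likelihood test) and with at least 3 gate genes (0.105), and it held in 7 of 12 alternatives.

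The haemoglobin genes Hba-a1, Hbb-bs and Hbb-bt were also lower in lactation, by -3.31, -2.54 and -3.49. Haemoglobin led 4 gated cells, 1 each in the virgin, mt/hGRF, second lactating and WT male 3 libraries. With these left out none of the 3 calls held and Hbb-bt turned to 0.25, and among cells with 3 or more gate genes Hba-a1 and Hbb-bs turned to 1.71 and 1.57. Differences between gated and other cells in the lactation change passed for 4 genes (0.0911%), 3 lower (0.0683%), all haemoglobin genes, and 1 higher (0.0228%), Rufy4. The paralogous haemoglobin genes share sequence, so their single values are uncertain. Cwc22 was the remaining gene that fell, at -4.50 in gated cells and -5.67 in the others.

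All 6 measured Notch genes had negative estimates with a median of -0.88, but 0 passed in lactation. In the stem transcription factor list 0 of 16 passed, with a median of -0.60 and 14 negative estimates, and in the folliculostellate list 0 of 17, with a median of -0.54 and 16 negative. Endocrine marker estimates had the opposite sign in the same cells, with 9 of 11 positive, 0 past the threshold and a median of 1.52, against -0.07 in other kept cells. Summed over 14 genes they had 62.0 UMIs per 10000 in gated virgin cells and 113 and 160.5 in lactation, and among cells with at least 3 gate genes 41.7 against 114 and 122. In the barcodes with too few UMIs to be kept, the same 14 genes had 86.7 in the virgin library and 220 in lactating library 1. In lactating library 2 they had 0, but 5908 of its 6000 barcodes passed the limits on UMIs and genes. That left too few barcodes to measure its background. The part of endocrine transcripts in the lower stem, folliculostellate and Notch values was not tested.

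The mt/hGRF library was compared with the 3 WT female libraries of 8 weeks. In gated cells 23 of 4393 genes passed (0.524%), 14 higher (0.319%) and 9 lower (0.205%). Of the antigen presentation list 6 of 12 were higher, the interferon-induced Ifitm3 among them, and 0 lower. The median log2 fold change was 2.55 against -0.04 over all genes and 0.96 for the list in other kept cells. DESeq2 called 3 genes (0.0683%), and 15 of 2837 passed among cells with at least 3 gate genes (0.529%). With 1 transgenic library, its spread was assumed to be like that of the other groups, and the library cannot be told apart from the genotype.

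B2m had 28.6 UMIs per 10000 in the mt/hGRF library and 5.25, 2.81 and 0.942 in WT females, so the transgenic library lay above all 3. Its log2 fold change was 3.28 (SE 0.55, adjusted p = 3.05e-06, edgeR's quasi-likelihood test). B2m passed in all 13 alternatives, with adjusted p between 2.34e-08 and 0.039, DESeq2 included. H2-K1 had 21.5 against 3.08, 3.0 and 0.471 (log2 fold change 2.86, call lost without WT female 3), and H2-D1, with 15 against 6.75, 3.93 and 3.14, did not pass.

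Among class II genes, H2-Aa had 6.22 UMIs per 10000 against 0.25, 0 and 0.157 in WT females, H2-Ab1 5.51 against 0, 0.375 and 0, and Cd74 5.61 against 0.750, 0.187 and 0.471. The transgenic library lay above every WT female in each. Their log2 fold changes were 4.87, 5.07 and 3.19, and Cd74 lost its call without female 2 or female 3. H2-Aa was seen in 23 of 69 transgenic cells. The 10 macrophage genes summed to 0.10 UMIs per 10000 in these gated cells.

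The other kept cells of the same libraries moved less. For H2-Aa they held 3.77 UMIs per 10000 in mt/hGRF and 5.63, 0.590 and 2.86 in WT females, which overlap. The transgenic difference in gated cells exceeded that in other cells for H2-Aa (4.07, SE 0.78, adjusted p = 0.00059, edgeR's quasi-likelihood test), H2-Ab1 (3.93), H2-K1 (2.11) and Cd74 (2.72). These are 4 of the 7 genes with such a difference (0.159% of those tested). The other genes were Hba-a1, Hbb-bs and Hbb-bt. With hormone genes left out of the fit only H2-Aa of the 7 still passed (adjusted p = 0.00642, edgeR's quasi-likelihood test), with H2-Ab1 at 0.0671 and H2-K1 at 0.0704. Without WT female 3, 0 genes passed by edgeR's test, with 165 at an unadjusted p under 0.05.

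**Figure D5:**
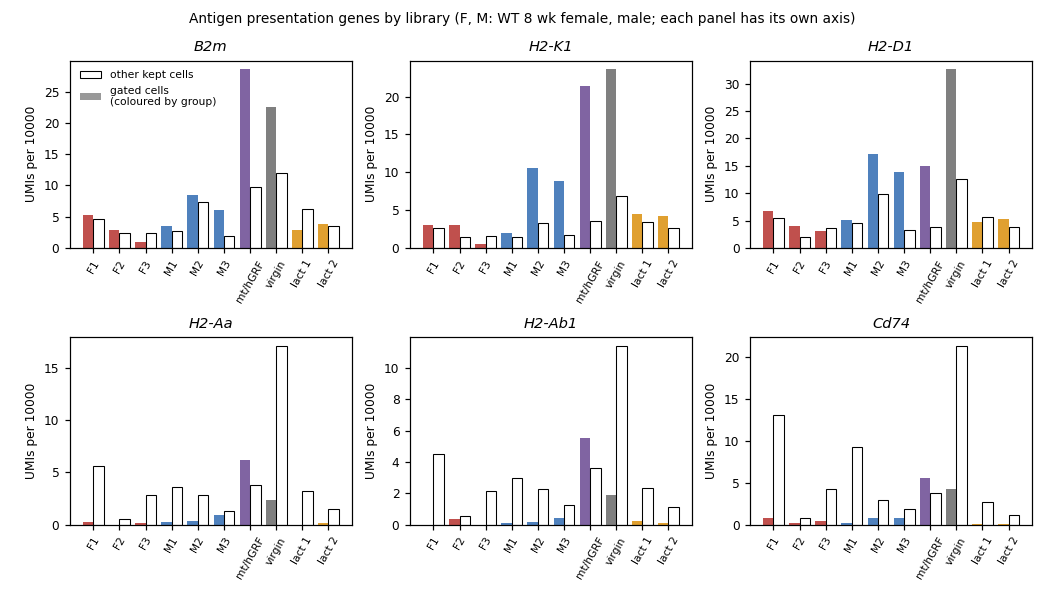
Levels of 6 antigen presentation genes in UMIs per 10000 (y axes, a separate scale in each panel) by library (x axes), filled bars for gated cells and open bars for all other kept cells. For B2m the mt/hGRF and virgin libraries reach 28.6 and 22.5 in gated cells, and no other library passes 8.53.

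The mt/hGRF and virgin libraries had the highest gated levels of B2m, H2-K1, H2-Aa, H2-Ab1 and Cd74, and the virgin library and WT male 2 those of H2-D1. WT males 2 and 3 came next for H2-K1, at 10.6 and 8.91, while male 1 had 1.98. They differ in age and genotype, and why these libraries were high was not tested.

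The promoter of B2m is shown because this gene passed in all 13 alternatives of the mt/hGRF comparison, although its call in lactation held in 9 of 12. In RefSeq on GRCm38.p6 the 250 bases before its start lie at chr2:122147437-122147686 on the plus strand, and the capitals mark a match of GAAA, any 2 bases and GAAA again, the core of interferon-stimulated response elements, at base -139.
B2m: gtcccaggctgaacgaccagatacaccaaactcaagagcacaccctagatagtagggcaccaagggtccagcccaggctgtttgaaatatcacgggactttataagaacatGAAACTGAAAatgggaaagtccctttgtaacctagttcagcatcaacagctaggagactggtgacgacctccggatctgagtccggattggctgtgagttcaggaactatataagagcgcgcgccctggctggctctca
The same letters, searched on both strands, stand in 978 of 32851 promoter windows of that length (2.98%) and in none of the windows of H2-K1, H2-D1, H2-Aa, Ifitm3 or Lcn2. A match is a description of the sequence, and binding was not measured.

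Ifitm3 was the sixth gene of the antigen and interferon list to rise in mt/hGRF, and Lcn2, Wfdc2 and Hsd11b1 rose outside it. Lcn2 had 3.31 UMIs per 10000 against 0.416, 0 and 0.157 (log2 fold change 3.31, adjusted p = 0.00156, edgeR's quasi-likelihood test). Ifitm3 had 15.9 against 8.08, 3.18 and 1.41, a log2 fold change of 2.23. Wfdc2, a secreted protein with domains of the whey acidic protein type, had 3.51 against 1.42, 0.375 and 0.942. Hsd11b1 had 7.22 against 1.83, 1.69 and 0.942.

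In each of these genes the transgenic library lay above all WT females. The calls of Lcn2, Ifitm3 and Hsd11b1 were lost without female 2 or female 3, and that of Wfdc2 without any single WT female. Cdkn1c, a brake on the cell cycle, and Snhg11 rose too. The call of Cdkn1c held in 4 of 13 alternatives and was lost without female 2 or female 3 and with at least 3 gate genes (adjusted p = 0.682, edgeR's quasi-likelihood test). That of Snhg11 held in 8 of 13 and was lost with at least 3 gate genes, where its log2 fold change was 4.69. Its log2 fold change went from 3.58 to 1.35 among members with no macrophage or lymphoid UMI. The 3 haemoglobin genes were also among the 14, of which Hba-a1 turned to -0.53 with the haemoglobin-led cells left out, and Hba-a1 and Hbb-bs to -1.36 and -0.22 with at least 3 gate genes.

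Id1 and Id3 fell in mt/hGRF, by 4.48 and 3.62 on the log2 scale. Id1 had 0.10 UMIs per 10000 against 5.33, 0.749 and 2.04, and Id3 0.401 against 14.1, 3.18 and 2.98, so the transgenic library lay below every WT female. Both calls were lost without WT female 1. The sign of Id3 turned when a Sox2 UMI was required (4.67), with female 2 the only 8-week WT female library left. Rasd1, Oacyl, Ttn and Pcsk2, all high in female 3, and Gm42418, which overlaps ribosomal RNA sequence, were also lower. Rasd1, Oacyl, Pcsk2 and Gm42418 lost their calls without WT female 3, and Ttn turned to 2.91.

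No measured gene of the epithelial junction, Notch, Wnt, Hippo, retinoid or growth factor lists passed in mt/hGRF. The share of kept barcodes in the gate was 2.49% in mt/hGRF, 0.606 times the mean of the Drop-seq WT females, and this became 0.867 times when 3 gate genes were required. The sum of hormone UMIs in gated cells was 11.9% in mt/hGRF, against 27.8%, 28.1% and 11.3% in WT females.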

How the data were processed

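The values deposited by the authors are raw counts of UMIs for each barcode and gene symbol. Per the authors, Drop-seq reads were aligned to mm10 with STAR (2.5.2a in the submitters' processing notes), unique exonic reads were counted by strand, and UMIs within an edit distance of 1 were merged. Cell Ranger made the 10X Genomics tables, its version not given in the sources used here. Both protocols capture 3' ends and counts were not corrected for length, so levels are compared within genes.

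Kept barcodes had at least 300 UMIs and 100 to 4000 genes (Drop-seq) or 201 to 2999 genes (10X Genomics), a mitochondrial share under 0.1 and a ribosomal pseudogene share under 0.01. Library depths were 798791 to 4960260 UMIs. UMIs of gated cells were summed per library, since cells are not replicates, and tested with edgeR 4.0.16 (TMM, filterByExpr, quasi-likelihood test, term for platform, all 10 libraries, 4 residual degrees of freedom, Benjamini-Hochberg over 4393 genes; R 4.3.3). P-values measure the spread between these libraries as pooled over genes. The lowest prior degrees of freedom were infinite, so a gene's own spread between libraries carried no weight. The difference between gated and other cells was tested as an interaction with the library as a block. DESeq2 1.42.0 was an alternative. Shares used exact binomial intervals and an exact permutation test (scipy 1.17.1). The scripts were tested on simulated data.

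Male and female libraries share a number through their platform or the code in their titles. Deviations of same-numbered libraries correlated at 0.61, 0.19 and 0.43, so the block was used as a paired alternative. Named genes are the gate genes, the 25 leading genes, genes past the threshold (at most 15 per direction) and up to 6 per fixed list. Leading genes had at least 50 UMIs in gated cells in all and a UMI in gated cells of at least 8 libraries. Single-cell details of Oacyl, Ttn, Mt3 and others, some list members past rank 6 and the B2m promoter were chosen after their values were seen. Some genes these rules name are not reported here. The members and the lists were chosen with earlier results of these data known. The value columns left out numbered 0.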

Additional observations from a re-analysis of the deposited data

Results flagged for a closer look

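In 20 cases a difference between groups was larger or smaller in gated cells than in all other kept cells of the same libraries, by edgeR's quasi-likelihood test of the difference itself (Benjamini-Hochberg adjusted p under 0.05). Values are log2 differences of differences, and causes were not tested.

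For females against males, the gated cells leaned further towards females by 3.38 for Rasd1, 3.07 for Ttn, 2.83 for Id3, 2.78 for Oacyl, 2.24 for Btg2, 1.96 for Fos and 1.78 for Pcsk2. They leaned less towards females, or more towards males, by -3.59 for Tsix, the antisense partner of Xist, and by -4.05 for Sh3d19. Sh3d19 had 1, 0 and 1 UMIs in gated cells of females 1 to 3 and 1, 3 and 24 in those of males 1 to 3. Tsix had 0.833, 0.749 and 1.73 UMIs per 10000 in gated female cells and 0.248, 0.379 and 0.339 in gated male cells, while other male cells held 0 to 0.153.

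For lactation against virgin, Rufy4 gave 9.62, a gene with 0 UMIs in the gated virgin cells and 11 and 23 in the lactating libraries, so the size of this estimate depends on the prior count. The haemoglobin genes Hba-a1, Hbb-bt and Hbb-bs gave -3.97, -3.96 and -3.45, and 4 gated cells had at least 5% haemoglobin UMIs.

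For mt/hGRF against WT, H2-Aa gave 4.07, H2-Ab1 3.93, Cd74 2.72 and H2-K1 2.11. Hbb-bs gave 3.62, Hba-a1 3.49 and Hbb-bt 3.21. With hormone genes left out of the fit H2-Aa alone of these 7 passed. Without WT female 3 none of them passed by edgeR's test, with 165 of all genes at an unadjusted p under 0.05.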

How the results depend on the processing

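Over all alternatives, 499 gene results kept their direction and call, 250 lost the call and 13 turned sign. With the Wald test of DESeq2 the genes passing numbered 3 between the sexes, 0 in lactation and 3 in mt/hGRF. With a Sox2 UMI required Id3 turned to -5.78 and Sparcl1 to -5.93 between the sexes, Hbb-bs to 1.56 in lactation and Id3 to 4.67 in mt/hGRF. That fit held the 7 libraries with at least 10 such cells, with female 2 alone for 8-week WT females. For it the genes passing are not counted. With at least 3 gate genes they numbered 7 between the sexes and 15 in mt/hGRF. Hba-a1 and Hbb-bs turned to 1.71 and 1.57 in lactation and to -1.36 and -0.22 in mt/hGRF. With members under 20% hormone UMIs, an alternative added after seeing the data, 9 and 12 passed between the sexes and in mt/hGRF. With haemoglobin-led members left out, added likewise, Hbb-bt turned to 0.25 in lactation and Hba-a1 to -0.53 in mt/hGRF. With no filter on low counts 13 passed in mt/hGRF. With the replicate block, that is, with the pairing, 2 genes passed between the sexes, of 1329 tested, fewer because fewer genes passed the filter, and the share ratio was 0.959. Leaving out each library in turn gave 4 to 18 genes between the sexes, 4 to 8 in lactation (a lone lactating library was assumed to vary like the other groups) and 10 to 24 in mt/hGRF, and Ttn ran from -2.55 to 5.24 between the sexes and from -4.98 to 2.91 in mt/hGRF, turning without female 3. For differences from other cells it gave 1 to 11, 2 to 2 and 0 to 6 genes, with Ttn from -5.40 (without female 3) to 3.56. Leaving out hormone genes left 1 such gene in mt/hGRF. The female to male ratio of the gate's share ran from 0.740 to 1.18 with single libraries left out and was 0.67 with at least 3 gate genes, 0.691 with a Sox2 UMI required and 0.71 after thinning, the lactation ratio was 0.436 with a Sox2 UMI required and 0.33 after thinning, and the mt/hGRF ratio was 0.867 with at least 3 gate genes and 0.867 after thinning. Other causes were not tested. Depth limits these data, as 35 to 127 gated cells per library left most genes below the filter.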
